A study of Homo sapiens with 24 samples.

Results

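The contrast described here asks how the response of HepG2 cells to the small molecule BRD8518 differed after 24 h from the response after 6 h. It was computed as the change against the vehicle at 24 h minus the change against the vehicle at 6 h, and a positive value means that a transcript was relatively higher under BRD8518 at the later time. Its group means came from 12 of the 24 arrays of the series. At 24 h, 3 arrays were of cells given 1 uM BRD8518 and 3 of cells given DMSO alone. At 6 h, 2 arrays were of cells given 1 uM BRD8518 and 4 of cells given DMSO alone. The spread behind the tests was estimated from all 24 arrays. The rest of these were of cells given oncostatin M for 1 h or 24 h, or BRD8518 or DMSO for 1 h. The dose of 1 uM is that of the sample labels; the protocol text gives a dilution series for the 6 h treatment, so the sources differ on that dose. All 4 groups of the contrast carried 0.25% DMSO, so the vehicle was common to treated and control cells. The contrast was taken over the 16098 probe sets, of 53617 on the array, that the annotation pairs with 1 gene symbol, and these cover 14884 genes. HepG2 is a human liver carcinoma line, a single established line and not normal liver, and the series concerns compounds that raise TRIB1. BRD8518 is known here by its code name alone.

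Transcripts that answer a signal within hours and those that follow later usually belong to different layers of a response. Immediate-early genes such as EGR1 and JUNB encode transcription factors that are read out directly from kinase signalling, and phosphatases of the DUSP family and SPRY proteins damp that signalling in return. Genes of the cell cycle, of sterol synthesis and of liver function lie further downstream, where a change often needs new regulators to be made or old ones to decay.

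Levels are log2 values normalised by RMA, an effect is a difference of group means on that scale, and a difference of 1 between the effects is a 2-fold gap. A probe set was said to differ between the times where limma gave a Benjamini-Hochberg adjusted p under 0.05 over the 16098 probe sets, and errors are standard errors (SE) of the fit. Whether replicate arrays stem from separate cultures is not given by the labels; the p-values thus reflect array-to-array spread alone, and that spread may be technical. The labels carry a position code: every 6 h array has the letter D, and every 24 h array the letter A except DMSO replicate 3, so time and letter cannot be told apart, while treated and vehicle arrays of each time share a letter once that array is left out. One array stood apart, DMSO 6 h replicate 2 (position D4), which lay away from the other 3 vehicle arrays of its time by Dixon's test at 1836 probe sets (11.4%), against 87 to 117 for the others. For many of the counts below, the count without it is given as well. Of 14 defining hepatocyte markers 11 were measured, and over the 12 arrays their levels ran from 7.90 to 9.50 for APOA1, the lowest reading, up to 12.42 to 12.64 for APOB. In bulk RNA, fewer cells of a type and less RNA per cell cannot be told apart.

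The response to BRD8518 was far from settled at 6 h. The effect differed between the times at 1679 of the 16098 probe sets (10.4%), higher at 24 h at 897 (5.57%) and lower at 782 (4.86%), and at 235 (1.46%) by at least 2-fold (limma, Benjamini-Hochberg adjusted). At an unadjusted p under 0.05 there were 3480 (21.6%). Without DMSO 6 h replicate 2 the count was 2817 (17.5%), 1564 higher (9.72%) and 1253 lower (7.78%), and 1678 of the 1679 were among them with the same sign. The median difference over all probe sets was 0.002 and its median SE was 0.17, which fell to 0.14 without that array.

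The difference lay in the treated cells. Between 6 h and 24 h the BRD8518 arrays differed at 2919 probe sets (18.1%). The DMSO arrays differed at 0 (0.00%) by the same limma test, and at 665 (4.13%) at an unadjusted p under 0.05. Among the 1679 probe sets, the treated arrays had moved further than the vehicle arrays at 1666 and less far at 13, with median absolute moves of 0.61 and 0.07. Against the vehicle of the same time, 2306 probe sets (14.3%) had changed at 6 h, 900 up (5.59%) and 1406 down (8.73%), and 4298 (26.7%) at 24 h. The effects at the 2 times share no array, and across probe sets, which are not independent, they had a Pearson r of 0.58 and a Spearman rho of 0.48.

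**Figure D1:**
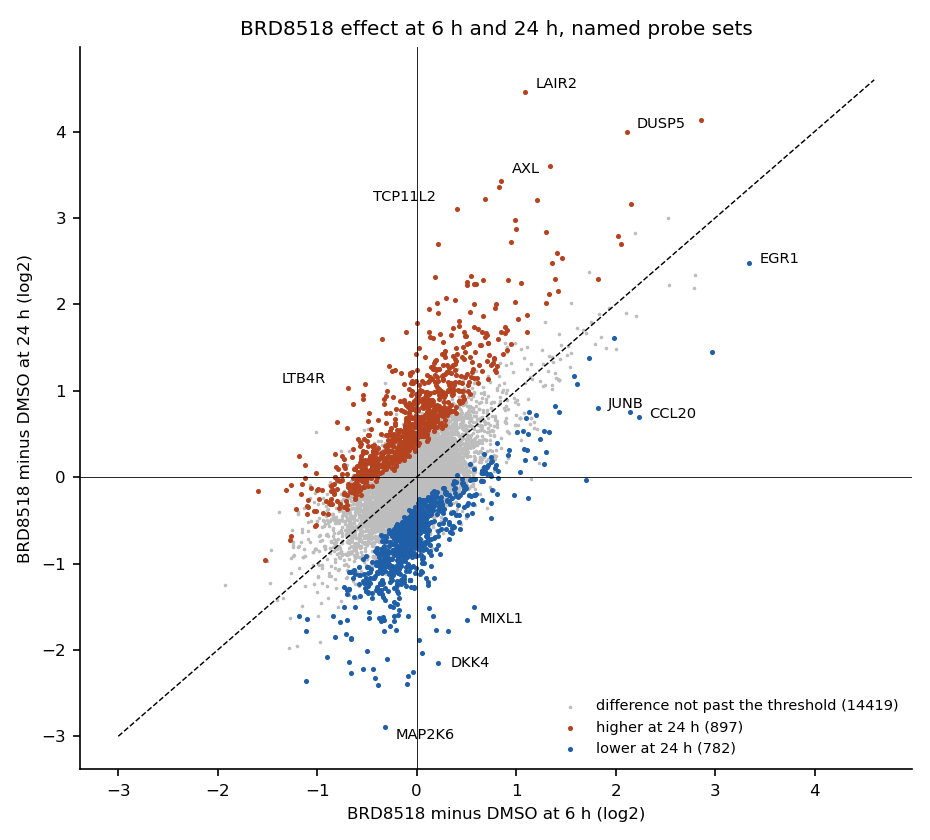
BRD8518 effect at 6 h (x axis) against 24 h (y axis) for the 16098 named probe sets, both log2, with the dashed line where the effects are equal. The 897 red points lie above the line and the 782 blue points below it; LAIR2 and AXL lie far above it, EGR1, JUNB and CCL20 below it on the right, and MAP2K6 and DKK4 at the bottom.

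Counted by gene, 1613 of 14884 differed (10.8%), and most were late rather than reversed. Of the 864 genes higher at 24 h (5.80% of 14884, each by the probe set with the highest mean), 461 had risen against DMSO at 24 h and had not passed the test at 6 h, and 147 had risen at both times and further at 24 h. Another 169 had fallen at 6 h and did not pass at 24 h, and 28 had fallen at 6 h and risen at 24 h. Of the 749 genes lower at 24 h (5.03%), 518 had fallen at 24 h alone by the same test, 118 had fallen at both times, 57 had risen at 6 h and did not pass at 24 h, 24 had risen at both times and less at 24 h, and 18 had risen at 6 h and fallen at 24 h. The arrays separated cleanly at 2368 genes (15.9%), for which every treated-minus-vehicle pair at 24 h lay on 1 side of every such pair at 6 h. Of these, 1512 (10.2% of genes) also passed the test with and without DMSO 6 h replicate 2, and the largest differences named below come from them.

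LAIR2, a secreted relative of the collagen receptor LAIR1, had the largest gain. It read 7.15, 7.44 and 7.34 on the BRD8518 arrays at 24 h and 2.56, 2.76 and 3.21 on the DMSO arrays of that time. The 6 h readings were 4.22 and 3.86 under BRD8518 and 2.81, 2.78, 3.36 and 2.83 under DMSO. The treated arrays were thus above the vehicle arrays at both times, and those at 24 h were far above those at 6 h. The rise was 2.13-fold at 6 h and 22.0-fold at 24 h, a difference of 3.37 ± 0.33 (SE; limma, Benjamini-Hochberg adjusted p = 5.1e-07). LAIR1 is a close copy whose transcripts may reach the same probes; its own probe set was at -0.02 and 0.13, neither past the test.

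TCP11L2 read 8.98, 9.02 and 9.04 under BRD8518 at 24 h and 5.97, 5.83 and 5.93 under DMSO. Its 6 h readings were 6.40 and 6.18 under BRD8518 and 6.08, 5.63, 5.98 and 5.88 under DMSO. The 3 treated arrays at 24 h stood far above every other array, while those at 6 h lay just above the vehicle. The effect was 0.40 ± 0.11 at 6 h and 3.10 ± 0.11 at 24 h, a difference of 2.70 ± 0.16 (limma, Benjamini-Hochberg adjusted p = 4.2e-10).

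AXL, a receptor tyrosine kinase whose ligand is GAS6, read 10.78, 10.71 and 10.68 under BRD8518 at 24 h against 7.10, 7.28 and 7.52 under DMSO. After 6 h the readings were 8.04 and 7.97 against 7.05, 7.25, 7.22 and 7.11. Treated and vehicle arrays did not overlap at either time. Its rise grew from 1.80-fold to 10.7-fold, a difference of 2.57 ± 0.14 (limma, Benjamini-Hochberg adjusted p = 2.4e-10).

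NAGS makes N-acetylglutamate, the activator of the first enzyme of the urea cycle. It read 9.14, 9.26 and 9.13 under BRD8518 at 24 h against 6.26, 6.12 and 6.22 under DMSO, and 7.48 and 7.34 against 6.48, 6.57, 6.30 and 6.37 at 6 h. Its groups did not overlap at either time, and the difference of the effects was 1.99 ± 0.12 (limma, Benjamini-Hochberg adjusted p = 4.2e-10). GPAT3, an enzyme of glycerolipid synthesis, rose 2.32-fold at 6 h and 9.23-fold at 24 h. TMC7, a transmembrane channel-like protein, rose 2.53-fold and 12.2-fold.

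LY96, the partner of the endotoxin receptor TLR4, read 7.37, 7.56 and 6.99 under BRD8518 at 24 h and 4.78, 4.46 and 4.57 under DMSO. At 6 h it read 4.59 and 4.69 under BRD8518, inside the range of the 4 DMSO arrays (3.82 to 4.87). Its effect was 0.21 ± 0.22 at 6 h and 2.70 ± 0.21 at 24 h. The other genes of the 15 largest gains were TMEM156 (difference 2.54), AQP7P3 (2.53), the homeobox gene DLX3 (2.13), the gasdermin GSDMB (1.95), the ERK phosphatase DUSP5 (1.88), the long noncoding RNA UCA1 (1.88), SEL1L3 (1.82) and the metalloproteinase inhibitor TIMP2 (1.81). A fainter probe set of DUSP5 gave 0.45 and did not pass. AQP7P3 is a copy of AQP7, and its probes may read AQP7 or other copies; the AQP7 probe set was at 0.43 at 6 h, which did not pass, and 0.45 at 24 h.

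**Figure D2:**
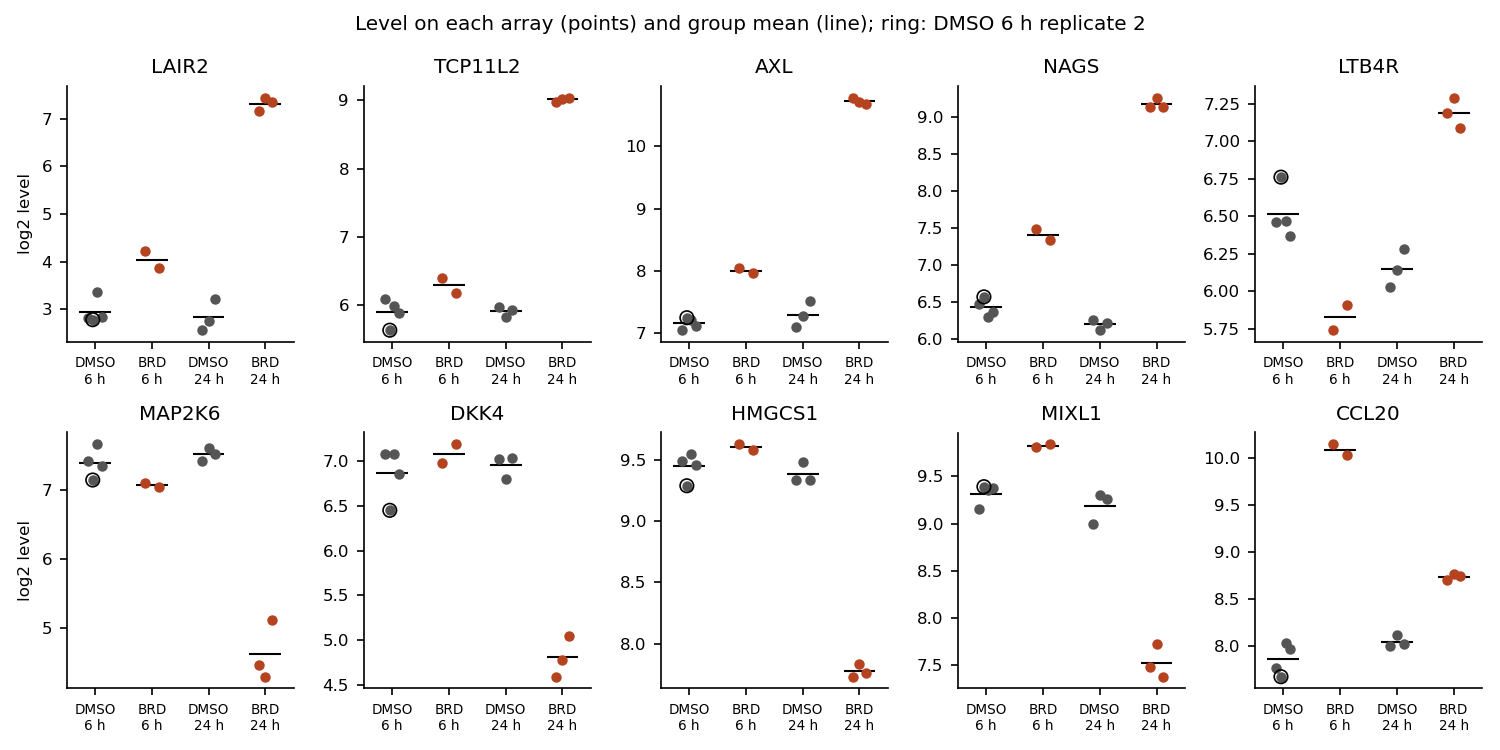
Log2 level (y axis, its own range in each panel) of 10 genes on each of the 12 arrays, grouped by treatment and time (BRD, BRD8518), with a line at the group mean and a ring around DMSO 6 h replicate 2. LAIR2, TCP11L2, AXL and NAGS were highest under BRD8518 at 24 h, LTB4R and MIXL1 lay on opposite sides of the vehicle at the 2 times, MAP2K6, DKK4 and HMGCS1 were lower at 24 h, and CCL20 was highest at 6 h.

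The largest loss was in MAP2K6, a kinase upstream of the stress kinase p38. It read 4.46, 4.29 and 5.11 under BRD8518 at 24 h against 7.42, 7.61 and 7.51 under DMSO. At 6 h it read 7.10 and 7.04 against 7.41, 7.14, 7.66 and 7.35. The 6 h treated arrays lay just under the lowest vehicle array, and the 24 h treated arrays lay far under theirs. The effect was -0.32 ± 0.18 at 6 h, which did not pass the test, and at 24 h the transcript fell 7.44-fold. The difference was -2.58 ± 0.25 (limma, Benjamini-Hochberg adjusted p = 4.3e-07).

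DKK4, a secreted Wnt antagonist that is itself a Wnt target, read 4.59, 4.78 and 5.05 under BRD8518 at 24 h against 7.02, 6.80 and 7.04 under DMSO. At 6 h it read 6.98 and 7.19 against 7.08, 6.45, 7.08 and 6.86, so the groups overlapped then. The difference of the effects was -2.36 ± 0.21 (limma, Benjamini-Hochberg adjusted p = 1.6e-07). TMT1A, a thiol methyltransferase of the endoplasmic reticulum, fell 5.24-fold at 24 h and was at -0.10 ± 0.15 at 6 h.

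Several of the other large losses were genes whose level on DMSO 6 h replicate 2 was itself low. ADH6, an alcohol dehydrogenase, read 8.16 there and 9.63 to 9.74 on the other 3 vehicle arrays of 6 h. Its difference was -2.21 ± 0.36 with that array and -1.83 without it. The sulfotransferase gene CHST9 (-2.22), the adhesion gene CADM1 (-2.10), MNS1 (-2.09) and MPV17L (-1.91) shared that low reading and kept the call without it. The homeobox gene HOXD1 (-2.02), the haptoglobin-related gene HPR (-1.90) and the receptor gene ANTXR1 (-1.81) complete the list with GSTA2, LEAP2, MIXL1 and ACAT2, described below. HPR is a near copy of HP, and MNS1 overlaps TEX9, so their readings may not be of 1 gene alone.

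A small set of genes crossed from 1 side of the vehicle to the other. Of 46 genes that passed all 3 tests with opposite effects, 28 went from below DMSO at 6 h to above it at 24 h, and 18 went the other way. LTB4R, a receptor for the lipid mediator leukotriene B4, read 5.74 and 5.91 under BRD8518 at 6 h against 6.46, 6.76, 6.47 and 6.37 under DMSO. At 24 h it read 7.19, 7.29 and 7.09 against 6.03, 6.14 and 6.28. Every treated array was below every vehicle array at 6 h and above at 24 h. Its effects were -0.69 ± 0.12 and 1.04 ± 0.11 (difference 1.72 ± 0.16; limma, Benjamini-Hochberg adjusted p = 2.3e-07), and its locus overlaps LTB4R2. SH3PXD2B, a scaffold of invasive adhesions, went from -0.28 to 1.28, and the vesicle-fusion regulator STXBP5 from -0.53 to 0.45. The other 5 largest were ARHGAP27P1 (difference 1.48), BTBD8 (1.14), DHX32 (1.03), CPB2-AS1 (0.98) and KIZ (0.97), of which DHX32 overlaps BCCIP and CPB2-AS1 overlaps CPB2.

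MIXL1, a homeobox gene of early mesoderm and endoderm, read 9.81 and 9.84 under BRD8518 at 6 h against 9.15, 9.39, 9.35 and 9.38 under DMSO. At 24 h it read 7.48, 7.73 and 7.38 against a mean of 9.19 ± 0.16 (SD, n = 3) under DMSO. It rose 1.42-fold and then stood 3.15-fold below the vehicle (difference -2.17 ± 0.15; limma, Benjamini-Hochberg adjusted p = 4.4e-09). LEAP2, a liver peptide that blocks the ghrelin receptor, read 7.81 and 7.91 against 7.12 to 7.41 at 6 h, and 5.77, 5.72 and 5.84 against 7.23 to 7.34 at 24 h. Its effect went from 0.58 to -1.51. CSRP1, a LIM-domain protein of the actin cytoskeleton, went from 0.74 to -0.30, and the tight-junction gene CLDN1 from 0.55 to -0.42. TRIM50 (difference -1.04), MGC12916 (-0.97), C3orf33 (-0.95) and TADA1 (-0.94) were the other 4 of the 8 largest. CLDN1 read low on DMSO 6 h replicate 2 (9.82, against 10.35 to 10.55), and its difference was -0.97 with that array and -0.81 without it.

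**Figure D3:**
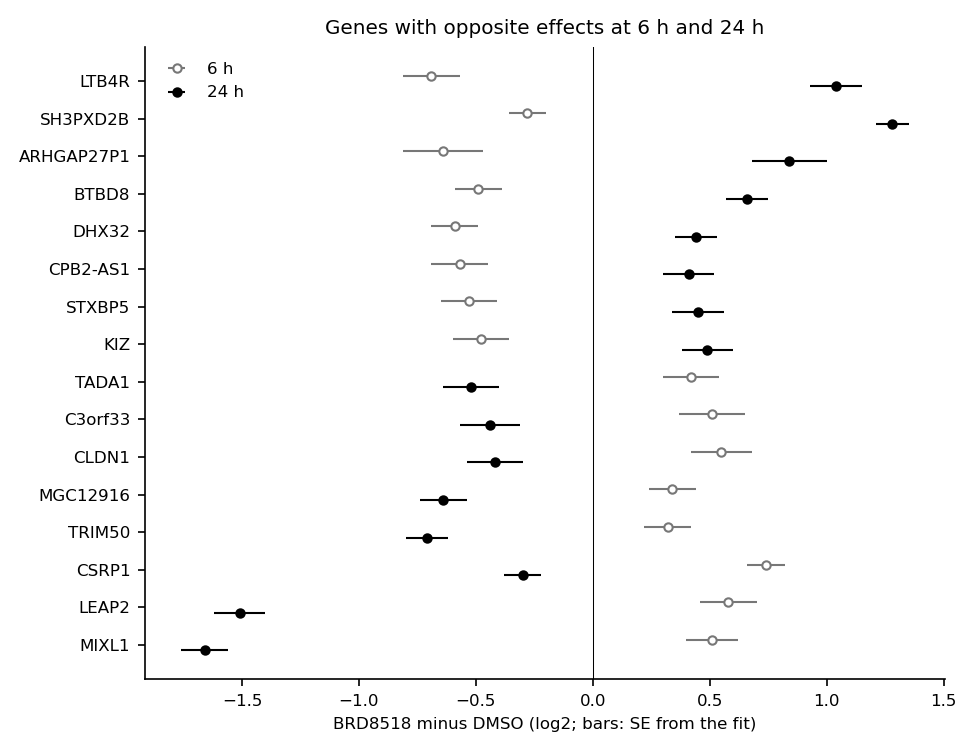
BRD8518 minus DMSO (log2, x axis) at 6 h (open) and 24 h (filled) for the 16 genes with the largest differences among those with opposite effects, with SE bars from the fit. The upper 8 genes, led by LTB4R, were below the vehicle at 6 h and above it at 24 h, and the lower 8, ending with LEAP2 and MIXL1, the reverse.

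Of 37 immediate-early and feedback genes of MAP kinase signalling, 27 were above DMSO at 6 h and 25 at 24 h, 24 of them at both times, with median effects of 0.91 and 0.68. Between the times 4 were higher, 7 lower and 26 did not pass, and the median difference was -0.07. Over all probe sets, 5.59% had risen at 6 h, and 26.7% had changed at 24 h in either direction. Of all genes, 5.80% were higher and 5.03% lower between the times. EGR1, a zinc-finger factor, read 11.54 and 11.53 under BRD8518 at 6 h against 7.95, 8.49, 8.12 and 8.21 under DMSO, and 10.66, 10.55 and 10.53 against 7.77, 8.19 and 8.34 at 24 h. It was far above the vehicle at both times and lower at 24 h than at 6 h in the treated cells. Its rise was 10.2-fold and then 5.59-fold (difference -0.86 ± 0.19; limma, Benjamini-Hochberg adjusted p = 0.0041).

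JUNB, a subunit of AP-1, rose by 1.82 at 6 h and 0.80 at 24 h, and its locus overlaps HOOK2. SPRY2, an inhibitor of receptor tyrosine kinase signalling, went from 0.58 to -0.21. In the opposite direction, DUSP5 read 7.69 and 7.32 under BRD8518 at 6 h against 5.18 to 5.65, and 9.43, 9.35 and 9.45 against 5.36 to 5.46 at 24 h. The rise in DUSP5 grew from 4.32-fold to 15.9-fold. The EGF-receptor ligand gene EREG grew from 1.39 to 2.29, the cytokine gene LIF from 2.05 to 2.70 and the AP-1 subunit FOSL2 from 0.80 to 1.29. FOSL2 lost its call without BRD8518 6 h replicate 1 (0.43). The 7 lower genes were 4 without that array and 10 without DMSO 6 h replicate 2.

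Targets of the factors SRF and YAP, which follow actin and cell shape, split in the same way. Of 17 measured, 12 were raised at each time, and between the times 3 were higher and 3 lower, with a median difference of -0.20. The shares over all probe sets and over all genes are those given for the MAP kinase genes. SRF itself rose by 1.08 at 6 h and 0.32 at 24 h, the adhesion protein gene VCL by 0.92 and 0.25, and CCN2, a matricellular growth factor, by 0.93 and 0.31. FHL2, a LIM-domain cofactor, went from 0.85 to 1.69, and AXL, above, belongs to the list as well. Without DMSO 6 h replicate 2, 6 were lower in place of 3.

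The chemokine gene CCL20 gave back most of its early rise. It read 10.15 and 10.03 under BRD8518 at 6 h against 7.76, 7.67, 8.03 and 7.97 under DMSO, and 8.70, 8.76 and 8.74 against a mean of 8.04 ± 0.06 (SD, n = 3) at 24 h. Its groups were apart at both times, by 4.71-fold and then by 1.62-fold (difference -1.54 ± 0.14; limma, Benjamini-Hochberg adjusted p = 1.7e-07). THBS1, a matrix glycoprotein, read 11.38 and 11.26 against 9.92 to 10.17 at 6 h, and 10.06, 10.14 and 10.09 against 9.78 to 10.04 at 24 h. It rose 2.43-fold at 6 h and at 24 h was at 0.15 ± 0.09, which did not pass. BCL6, a transcriptional repressor, behaved alike, with 0.68 and then 0.11. Of 15 NF-kB and chemokine genes 2 were lower, CCL20 and the NF-kB subunit gene NFKB1 (0.25, then -0.40), and 1 was higher, the signalling kinase gene IRAK2 (0.29, then 0.95). Among all genes 5.03% were lower and 5.80% higher.

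For 1027 genes the effect passed at both times with 1 sign and the difference did not pass, 402 of them raised and 625 lowered. The 8 with the largest effects at both times were all raised. DUSP1, a phosphatase of MAP kinases, was at 2.10 and 1.90 (95% interval of the difference -0.43 to 0.02), the kinase gene PIM1 at 1.83 and 1.88 (-0.32 to 0.42) and CPEB4, an RNA-binding protein, at 1.93 and 1.96 (-0.34 to 0.40). ANKRD1, a muscle and stress-linked YAP target, was at 2.54 and 2.23 (-0.60 to -0.02), and KRTAP2-3 at 2.80 and 2.35 (-1.12 to 0.22). PLK3 (-0.34), the MIR3189 precursor probe set within GDF15 (-0.60) and LINC-PINT (0.63) also belong here, but each passed without DMSO 6 h replicate 2 (-0.38, -0.75 and 0.77). GDF15's own probe set differed by 0.08. An interval that spans 0 leaves room for a difference of the size of its bounds. The intervals of ANKRD1, PLK3 (-0.59 to -0.08), MIR3189 (-1.16 to -0.04) and LINC-PINT (0.14 to 1.12) exclude 0. Their effects are thus not shown to be equal at the 2 times, although the adjusted test did not pass.

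TRIB1, the pseudokinase gene that the series is about, read 10.61 and 10.47 under BRD8518 at 6 h against 8.96, 9.23, 9.20 and 9.21 under DMSO, and 10.50, 10.51 and 10.42 against 9.17, 9.31 and 9.34 at 24 h. Treated arrays were above all vehicle arrays at both times, and those of 6 h and 24 h overlapped each other. The rise was 2.62-fold and 2.31-fold, and the difference of -0.19 ± 0.12 did not pass (95% interval -0.44 to 0.06; limma, Benjamini-Hochberg adjusted p = 0.43). TRIB2 differed by -0.04 and SOCS3, a feedback inhibitor of cytokine receptors, by -0.22, neither past the test. TRIB3 grew from 0.78 to 1.23, a difference of 0.45 that passed (limma, Benjamini-Hochberg adjusted p = 0.031) but lost the call when any of 6 single arrays was left out, 4 of them at 24 h and both BRD8518 arrays of 6 h.

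Of 29 DNA replication genes measured, 20 had fallen against DMSO at 6 h and 27 at 24 h. By comparison, 8.73% of all probe sets had fallen at 6 h, and 26.7% had changed at 24 h in either direction. Of all genes, 5.03% were lower at 24 h than at 6 h. The effect was lower at 24 h than at 6 h for 21, of which 14 were among those that had fallen at 6 h, with a median difference of -0.69 (all genes, 0.002). Leaving out single arrays gave 18 to 24. GINS2, a subunit of the replicative helicase complex, read 8.30, 8.54 and 8.27 under BRD8518 at 24 h against 9.91, 9.96 and 10.08 under DMSO. After 6 h the readings were 9.53 and 9.57 against 9.98, 9.47, 10.05 and 10.05, where the lowest vehicle array was DMSO replicate 2. Its effect was -0.34 ± 0.12 at 6 h, which did not pass, and -1.61 ± 0.12 at 24 h. UHRF1, which carries DNA methylation through replication, was at -0.48 and -1.63, CDC6, a licensing factor, at -0.71 and -1.81, and GINS1 at -0.70 and -1.65, with a difference that lost its call in a fit of the 12 arrays alone.

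The promoters of these genes are shown because they fell together and many carry letters of the type bound by E2F factors, the classical regulators of replication genes. The letters TTCCCGC or TTGGCGC on either strand lay within the 250 bases before the start of 13 of 25 replication genes with an entry (52.0%), and of 2170 of all 27305 genes (7.95%). The list holds measured genes only, while the 27305 include genes not measured here, so the shares are not of like sets. The matches shown do not overlap each other, and a match is a description of the letters, not of a bound site. The 250 bases before the first listed RefSeq start (GRCh38.p14) are given 5′ to 3′ on the gene's strand, with matches in capitals. GINS2 lies on the minus strand at chr16:85688955-85689204 and UHRF1 on the plus strand at chr19:4909251-4909500.
GINS2: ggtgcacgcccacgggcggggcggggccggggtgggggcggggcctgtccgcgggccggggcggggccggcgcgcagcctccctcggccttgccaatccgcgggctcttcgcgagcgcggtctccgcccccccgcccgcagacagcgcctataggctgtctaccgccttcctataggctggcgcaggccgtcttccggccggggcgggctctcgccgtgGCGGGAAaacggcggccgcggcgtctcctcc
UHRF1: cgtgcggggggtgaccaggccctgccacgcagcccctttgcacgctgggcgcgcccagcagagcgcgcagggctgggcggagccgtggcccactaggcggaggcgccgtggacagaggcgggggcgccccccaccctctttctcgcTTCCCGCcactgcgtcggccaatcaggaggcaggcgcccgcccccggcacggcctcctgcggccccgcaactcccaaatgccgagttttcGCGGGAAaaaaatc
The match in GINS2 begins at -31 from the start, and those in UHRF1 begin at -104 and -14.

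Most mitosis genes had not passed the test at 6 h. Of 46 measured, 17 had fallen at 6 h and 41 at 24 h, and 15 were lower at 24 h than at 6 h, with a median difference of -0.31. The remaining gene that passed, the phosphatase gene CDC25B, was higher by 0.42, a call lost without any 1 of 7 arrays. The 15 lower genes were 22 without DMSO 6 h replicate 2, 11 without BRD8518 6 h replicate 1 and 10 in a fit of the 12 arrays alone. Over all probe sets, 8.73% had fallen at 6 h, and 26.7% had changed at 24 h in either direction. Of all genes, 5.03% were lower and 5.80% higher between the times. SMC2, a condensin subunit, was at 0.07 and -0.93 (a call lost in a fit of the 12 arrays alone), the motor gene KIF15 was at -0.17 and -1.12, and the checkpoint gene MAD2L1 differed by -0.92. Among 15 genes of homologous recombination and the Fanconi pathway 5 were lower (3 in that fit), and without DMSO 6 h replicate 2, 7 were lower and 2 higher. The 5 included the exonuclease gene EXO1 (-0.66, then -1.86) and the DNA translocase gene RAD54L (-0.20, then -1.25). The letters TTCCCGC or TTGGCGC were present in 8 of 39 mitosis promoters (20.5%).

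Most of the cholesterol synthesis genes measured were lower at the later time. Of 19 genes measured, 8 had fallen at 6 h and 15 at 24 h, and 12 were lower at 24 h than at 6 h, with a median difference of -0.73 and medians of -0.33 at 6 h and -1.20 at 24 h. Leaving out single arrays gave 11 to 15. Among all probe sets 8.73% had fallen at 6 h, and 26.7% had changed at 24 h in either direction. Of all genes, 5.03% were lower at 24 h than at 6 h. HMGCS1, the enzyme that makes the substrate of HMG-CoA reductase, read 7.73, 7.83 and 7.76 under BRD8518 at 24 h against 9.34, 9.48 and 9.34 under DMSO. At 6 h it read 9.63 and 9.58 against 9.49, 9.29, 9.55 and 9.46. Its treated arrays lay just above the vehicle at 6 h, where the effect did not pass, and below it at 24 h, by 3.05-fold (difference -1.77 ± 0.11; limma, Benjamini-Hochberg adjusted p = 7.3e-10).

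ACAT2, the cytosolic thiolase that starts the pathway, read 6.88, 7.08 and 7.11 under BRD8518 at 24 h against 9.23 to 9.27, and 8.83 and 8.92 against 9.26 to 9.45 at 6 h. It fell 1.36-fold at 6 h and 4.67-fold at 24 h, and its locus overlaps TCP1. MSMO1, a sterol demethylase, was at -0.03 and -1.27, and STARD4, which carries cholesterol in the cytosol, at -0.33 and -1.65. The 7 genes of the list that did not pass included the regulators SREBF1 (-0.31) and SREBF2 (-0.24) and the sensor INSIG1 (-0.05), named after their values were seen.

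The promoter of HMGCS1 is shown for the CCAAT box, bound by NF-Y, a usual partner of the sterol-regulated factors. CCAAT on either strand was present in 14 of 17 cholesterol genes with an entry (82.4%) and in 9021 of all 27305 genes (33.0%), which include genes not measured here. The 250 bases before the first listed RefSeq start of HMGCS1 lie at chr5:43313413-43313662 (GRCh38.p14, minus strand), with both matches in capitals; they read as the reverse complement and begin at -155 and -100 from the start.
HMGCS1: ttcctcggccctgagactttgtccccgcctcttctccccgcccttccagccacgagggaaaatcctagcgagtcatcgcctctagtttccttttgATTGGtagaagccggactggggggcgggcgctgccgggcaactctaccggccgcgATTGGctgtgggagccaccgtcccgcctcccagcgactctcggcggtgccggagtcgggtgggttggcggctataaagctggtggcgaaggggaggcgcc
The gene's level before and after is given above, and binding of any factor was not measured.

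Fatty acid and triglyceride genes followed in part. Of 21 measured, 8 were lower and 2 higher, with a median difference of -0.23. Over all genes 5.03% were lower and 5.80% higher. PNPLA3, a lipid-droplet enzyme, read 6.49, 6.52 and 6.45 under BRD8518 at 24 h against 8.58 to 8.68, and 8.05 and 7.93 against 8.51 to 8.80 at 6 h. Its treated arrays were below all vehicle arrays at both times, by 1.61-fold and 4.42-fold. ELOVL2, an elongase, was at -0.04 and -1.03, and DGAT1, the last enzyme of triglyceride synthesis, at -0.16 and -0.98. The phosphatidate phosphatases LPIN1 and LPIN2 were higher, LPIN1 going from -0.08 to 0.64 and LPIN2 from 0.20 to 0.67, the latter a call lost without BRD8518 6 h replicate 2 (0.39). The 8 lower genes were 5 without BRD8518 6 h replicate 2, 11 without DMSO 6 h replicate 2 and 3 in a fit of the 12 arrays alone.

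MTTP loads lipid onto apolipoprotein B. It read 7.88, 7.99 and 7.88 under BRD8518 at 24 h against 9.14, 8.93 and 8.85 under DMSO, and 8.78 and 8.71 against 9.08, 7.96, 8.95 and 9.01 at 6 h. The 6 h groups overlapped only through DMSO replicate 2, and the difference was -1.05 ± 0.27 with that array (limma, Benjamini-Hochberg adjusted p = 0.013) and -0.79 without it. The MTTP call was lost without BRD8518 6 h replicate 1 (-1.02) and in a fit of the 12 arrays alone. APOB read 12.42 to 12.64 on all 12 arrays, with a difference of 0.00 ± 0.10 (95% interval -0.20 to 0.20). Of 16 lipoprotein genes 1 was higher, TM6SF2 (0.41, a call lost without any 1 of 7 arrays), and 6 were lower, among them APOM (-0.11, then -1.25, within a locus shared with BAG6), APOF (-0.06, then -0.86) and APOC3 (-0.32, then -1.09). APOC3 lost its call without BRD8518 6 h replicate 2 (-0.69), and in the fit of the 12 arrays alone 2 of the 16 were lower. The shares among all genes were 5.03% lower and 5.80% higher.

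Several genes of liver function were lower at the later time. Of 18 positive acute phase proteins 8 were lower at 24 h than at 6 h (median difference -0.23), although 1 had risen and the rest had not passed at 6 h. Haptoglobin (HP) was at 0.05 and -0.80, ceruloplasmin (CP) at -0.24 and -1.13, and LRG1 at 0.01 and -0.78. The iron hormone gene HAMP rose by 1.04 at 6 h and was at 0.06 at 24 h, but its call was lost without any 1 of 3 arrays, among them BRD8518 6 h replicate 2 (-0.88). Without that array 5 of the 18 were lower, and in a fit of the 12 arrays alone also 5. Of 22 other plasma proteins 6 were lower and 1 higher. Beside the counts of both lists, 5.03% of all genes were lower and 5.80% higher. Transthyretin (TTR) read 9.75, 9.92 and 9.87 under BRD8518 at 24 h and 10.53 to 10.67 on all the other arrays, the treated arrays of 6 h included. The clotting factor gene F11 was at -0.34 and -1.39. IGFBP1, which binds insulin-like growth factors, went the other way, from 0.79 to 1.96.

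Detoxification enzymes had a median difference of -0.80 over 11 measured, with 6 lower and 1 higher. For all genes the shares were 5.03% lower and 5.80% higher. The glutathione transferases GSTA1 (-0.03, then -1.28) and GSTA2 (0.20, then -1.77) are near copies whose probes may read each other. GSTA2 varied from 5.03 to 6.90 among the DMSO arrays of 6 h, and its call was lost without BRD8518 6 h replicate 2 (-1.70) and in a fit of the 12 arrays alone. Aldehyde oxidase, AOX1, was the higher member, from -0.20 to 0.78.

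Hepatocyte transcription factors held 6 lower of 15, with a median difference of -0.25. ONECUT1 read 6.00, 6.06 and 6.08 under BRD8518 at 24 h against 8.11 to 8.35, and 7.73 and 7.70 against 7.96 to 8.54 at 6 h. It was below the vehicle on every treated array, by 1.46-fold and then 4.65-fold. HLF, a clock-linked factor, went from 0.37 to -0.41, and XBP1, the factor of the unfolded protein response, from 0.04 to -0.65. The 6 were 3 without BRD8518 6 h replicate 2 and 3 in the fit of the 12 arrays alone. Of 13 genes of gluconeogenesis and amino acid breakdown 1 was higher, IGFBP1 (1.17), and 4 were lower, including AGXT (-0.32, then -1.42), TAT (0.76, then -0.15) and PCK1 (0.53, then -0.04), the last a call lost without BRD8518 6 h replicate 2 (-0.50). KLB, the co-receptor for the hormones FGF19 and FGF21, was the member of 6 bile acid genes that passed, at -0.18 and -1.53, and 2 were lower without DMSO 6 h replicate 2. Among all genes 5.03% were lower.

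Some stress-linked genes rose late. Of 20 genes of the integrated stress response 8 were above DMSO at 6 h and 13 at 24 h, and 5 were higher and 2 lower between the times (median difference 0.23). By comparison, 5.59% of all probe sets had risen at 6 h, and 26.7% had changed at 24 h in either direction. Between the times 5.80% of all genes were higher and 5.03% lower. ASNS, asparagine synthetase, read 8.64, 8.84 and 8.67 under BRD8518 at 24 h against a mean of 6.98 ± 0.06 (SD, n = 3) under DMSO. The 6 h readings were 7.53 and 7.44 against a mean of 6.91 ± 0.13 (SD, n = 4). Its groups were apart at both times, by 1.49-fold and 3.33-fold (difference 1.16 ± 0.14; limma, Benjamini-Hochberg adjusted p = 4.6e-06). The lipoprotein receptor gene VLDLR was at 0.00 and 1.79, and CTH, an enzyme of cysteine synthesis, at 0.67 and 1.87. The effector DDIT3 was lower, from 1.61 to 1.08, with a call lost without any 1 of 4 arrays. The 5 higher genes were 3 without BRD8518 24 h replicate 2, and the 2 lower ones 0 without BRD8518 24 h replicate 1.

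The aminoacyl-tRNA synthetases, which charge tRNAs with amino acids, held 5 higher genes of 17 and a median difference of 0.24, and 8 were higher at an unadjusted p under 0.05 (limma). AARS1 went from -0.24 to 0.43, CARS1 from 0.11 to 0.91, and MARS1 from 0.10 to 0.69, while SARS1 differed by 0.53. Without DMSO 6 h replicate 2, 9 were higher. Over all genes 5.80% were higher, and 21.6% of all probe sets passed at an unadjusted p under 0.05 (limma) in either direction. MARS1 and DDIT3 overlap on the genome. In contrast, 4 of 13 ER folding genes were lower, XBP1 among them, with MANF (-0.28, then -0.95) and SEC61B (0.05, then -0.50), and without BRD8518 6 h replicate 2 they were 2, SEC61B losing its call (-0.48). Leaving out DMSO 6 h replicate 2 gave 6 lower ER folding genes. The share of all genes that were lower was 5.03%.

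The promoter of ASNS is shown because it carries letters of the type bound by ATF4 with C/EBP factors. TGATGNAA on either strand lay within the 250 bases before the start of 3 of 17 stress response genes (17.6%), 2 of 14 synthetase genes (14.3%) and 870 of all 27305 genes (3.19%). Those 27305 include genes not measured here. The stretch lies at chr7:97872409-97872658 (GRCh38.p14, minus strand), and the match in capitals begins at -68 from the first listed RefSeq start.
ASNS: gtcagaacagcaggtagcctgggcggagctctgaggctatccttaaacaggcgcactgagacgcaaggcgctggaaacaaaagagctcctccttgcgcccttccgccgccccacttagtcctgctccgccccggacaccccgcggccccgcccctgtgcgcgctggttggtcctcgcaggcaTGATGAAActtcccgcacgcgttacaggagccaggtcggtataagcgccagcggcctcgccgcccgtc
ATF4 itself was at -0.01 at 6 h and 0.06 at 24 h, neither past the test.

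**Figure D4:**
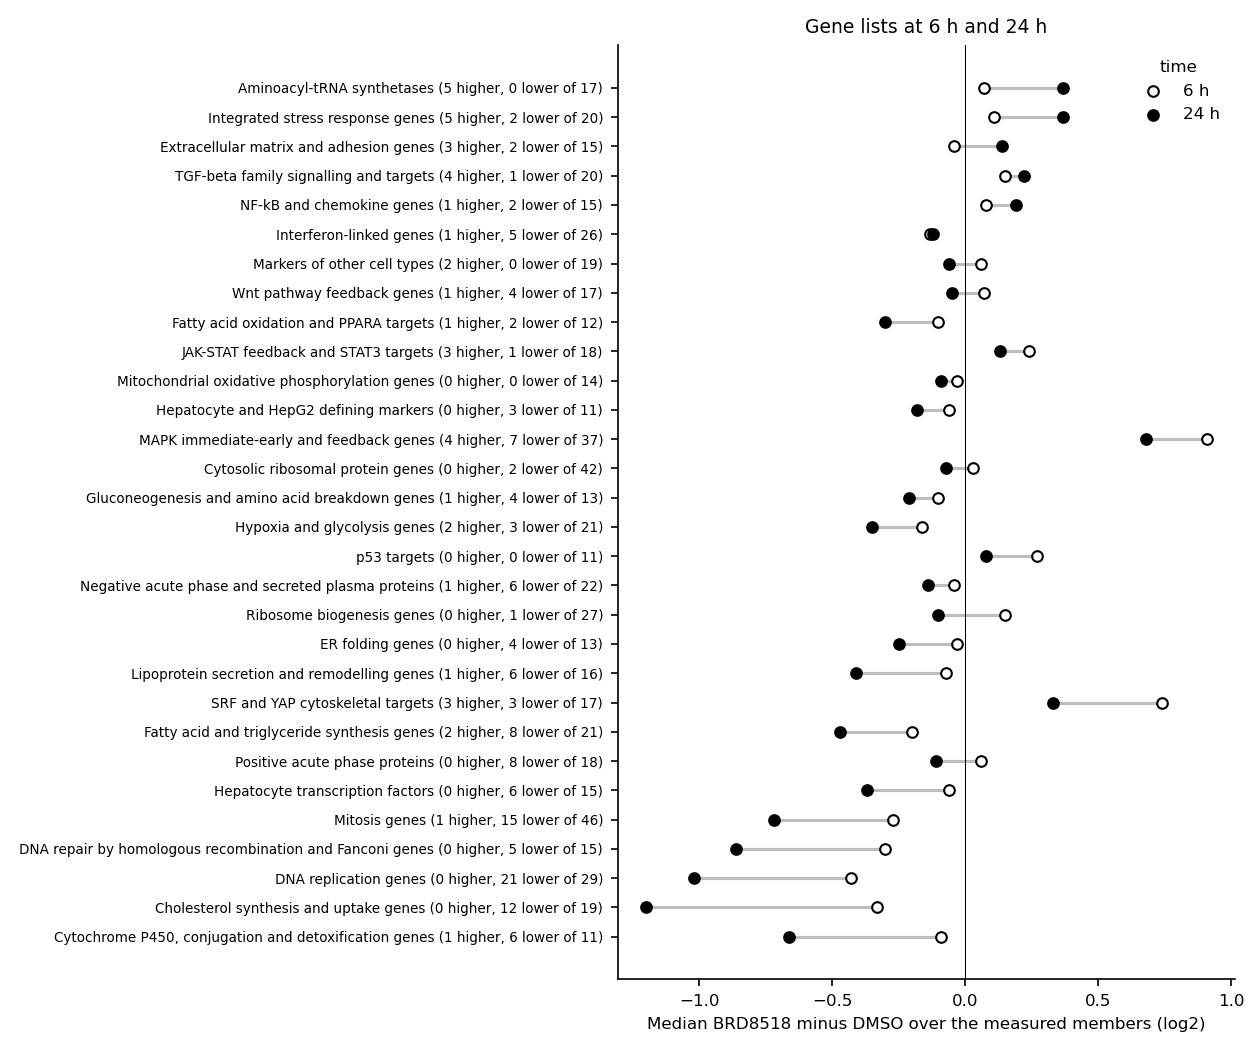
Median BRD8518 effect (log2, x axis) at 6 h (open) and 24 h (filled) over the measured members of each list of 10 or more genes, with the number higher and lower at 24 h than at 6 h. Cholesterol synthesis went from -0.33 to -1.20 and DNA replication from -0.43 to -1.02, while aminoacyl-tRNA synthetases went from 0.07 to 0.37.

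Among receptors and cytokine signalling, IL6R, the receptor of interleukin 6, read 9.48, 9.45 and 9.45 under BRD8518 at 24 h against 7.14 to 7.31, and 8.16 on both treated arrays at 6 h against 6.94 to 7.33. Its rise grew from 2.07-fold to 4.73-fold. The kinase JAK2 went from 0.22 to 1.25, a call lost without BRD8518 6 h replicate 2 (0.81). In all 3 of 18 JAK-STAT genes were higher and 1, BCL6, was lower. Without BRD8518 6 h replicate 2, 1 was higher, while 3 were lower without DMSO 6 h replicate 2. Beside the counts of this and the next lists, 5.80% of all genes were higher and 5.03% lower. Of 20 genes of TGF-beta signalling 4 were higher: the ubiquitin ligases SMURF1 (0.61, then 1.09) and SMURF2 (0.40, then 1.43), the ligand BMP6 (0.18, then 1.10) and the activin antagonist FSTL3 (0.06, then 0.87). In that list 1 gene was lower, and 3 without DMSO 6 h replicate 2. Of 17 Wnt feedback genes 4 were lower: DKK4, DKK1 (0.64, then -0.05), SP5 (0.43, then -0.43, a call lost in a fit of the 12 arrays alone) and ZNRF3 (0.39, then -0.19). In that list 1 gene was higher, APCDD1 (0.57), and 3 were without DMSO 6 h replicate 2.

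Of 26 interferon-linked genes 5 were lower, with IFIH1, a sensor of viral RNA, at -0.36 and -1.30, and 1, IRF9, was higher, a call lost without BRD8518 6 h replicate 1 (0.45). Of 15 matrix genes 3 were higher, among them TIMP1 (0.46, then 1.51) and TIMP2 (0.20, then 2.01), and 2 lower, THBS1 among them. Of 21 hypoxia and glycolysis genes 3 were lower and 2 higher. EPO, erythropoietin, was at -1.11 and -2.36, and LOX, a collagen crosslinker, at -0.33 and -1.78, while NDRG1 went from 0.04 to 1.01, and without DMSO 6 h replicate 2 the lower genes were 7. Of 12 genes of fatty acid oxidation and PPARA the pantetheinase gene VNN1 was higher (0.51, then 2.26) and the thiolases ACAA1 (-0.11, then -0.80) and ACAA2 (-0.20, then -0.96) lower. Beside the counts of these lists, 5.80% of all genes were higher and 5.03% lower.

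Over all genes 10.8% passed the test. In each of 11 p53 targets, 8 heat shock genes and 14 genes of oxidative phosphorylation the count past the threshold was 0 (limma), with 2, 1 and 0 members at an unadjusted p under 0.05. Without DMSO 6 h replicate 2 these counts past the threshold were 2, 1 and 1. Of 42 ribosomal protein genes 2 were lower and of 27 ribosome biogenesis genes 1, with median differences of -0.10 and -0.19. The former count was 0 without BRD8518 6 h replicate 2, and the latter 4 without DMSO 6 h replicate 2. Of 6 NRF2 targets the heme oxygenase gene HMOX1 was lower (-0.66, then -1.10), a call lost without BRD8518 6 h replicate 2 (-0.38), and 2 were lower without DMSO 6 h replicate 2. Of 19 measured markers of other cell types 2 were higher, the biliary keratin gene KRT19 (0.13, then 0.97) and the macrophage-type lysosomal gene CD68 (0.51, then 1.19). The mean level over these 19 markers ran from 6.15 to 6.27 over the 12 arrays. Over the 11 hepatocyte markers it ran from 10.83 to 10.92 under BRD8518 at 24 h, 11.08 to 11.12 at 6 h, and 11.12 to 11.26 under DMSO. Its part in the late losses of liver genes was not tested.

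Single arrays moved the number of differences unequally. Leaving out either BRD8518 array of 6 h left 1189 or 1054 probe sets, and leaving out an array of 24 h left 1341 to 1453. Without DMSO 6 h replicate 1, 3 or 4 it was 1652, 1738 and 1628, and without DMSO 6 h replicate 2 it was 2817. Without DMSO 24 h replicate 3, where the arrays of each time share a letter, it was 1453. Of the 170 genes chosen by rule, the sign of the difference of those called turned in no alternative, and 120 of the 158 called kept the call in all of them.

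**Figure D5:**
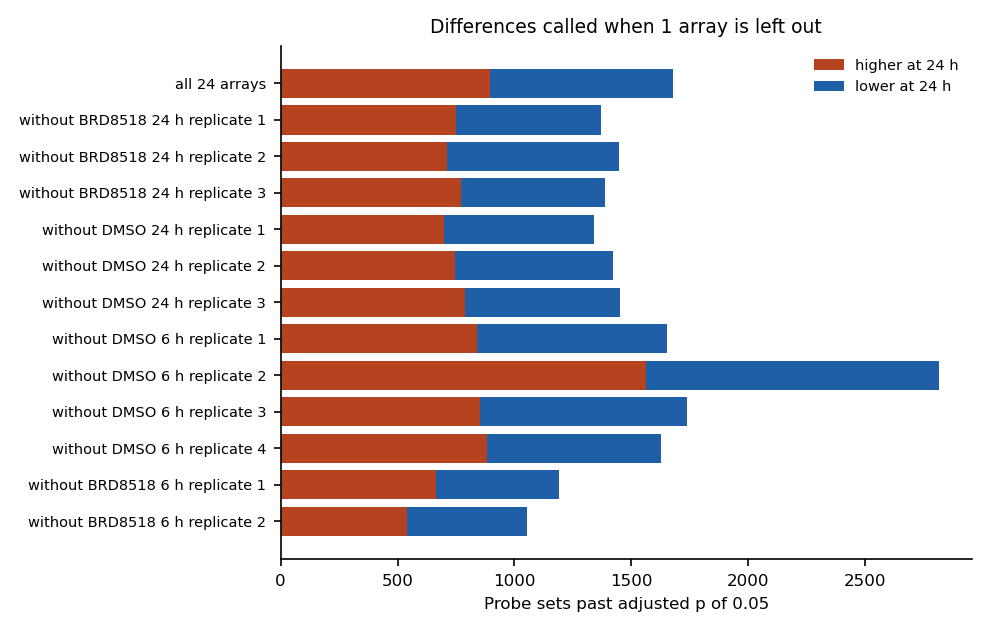
Number of probe sets whose BRD8518 effect differed between 24 h and 6 h (x axis), split into higher (red) and lower (blue), with all arrays and with each of the 12 arrays left out in turn. The bar without DMSO 6 h replicate 2 reaches 2817, and those without a BRD8518 array of 6 h are the shortest, at 1189 and 1054.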

How the data were processed

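The deposited values were log2 expression levels of HepG2 cells on 24 arrays, which the authors normalised by RMA; the submitters' processing notes name RMA and oligo. The sources used here give neither versions nor the array's genome build. The 12 arrays of the contrast come from the labels' treatment and time. Of the probe sets, 16098 have 1 gene symbol in the platform annotation, and the remaining 37519 do not. A gene is represented by its probe set with the highest mean, since 779 genes have several.

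One model with a mean for each of the 8 groups was fitted to all 24 arrays with limma 3.58.1 (lmFit, eBayes) in R 4.3.3, and p-values were Benjamini-Hochberg adjusted over the 16098 probe sets. The scripts were tested on simulated data. Tables and figures used Python 3.11 and matplotlib 3.10.9. The number of arrays limits the precision.

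Genes were named by rule. These are the 15 largest differences in each direction with separated arrays, past the threshold with and without DMSO 6 h replicate 2; the 8 largest in each direction with opposite effects; the 8 largest sustained effects; up to 4 genes per direction of each of 36 lists; and TRIB1, TRIB2, TRIB3, APOB, MTTP, SOCS3 and EGR1. The members and lists were chosen with earlier results of these data known. The alternatives were leaving out each array, a level filter, centring, quantile normalization, moderation, array weights, the position letter, the handling of probe sets, the 12 arrays alone and a stricter threshold. Overlapping genes and promoter sequences come from RefSeq tables (GRCh38.p14). Probe sets of the histone and tubulin lists had 0 measured members.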

Additional observations from a re-analysis of the deposited data

Results flagged for a closer look

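The effect of BRD8518 differed between 24 h and 6 h at 1679 probe sets by the test of the difference itself. Among the genes with opposite effects at the 2 times, the difference was 1.72 for LTB4R, 1.56 for SH3PXD2B, 1.48 for ARHGAP27P1, 1.14 for BTBD8, 1.03 for DHX32, 0.98 for CPB2-AS1 and 0.97 for both KIZ and STXBP5. It was -2.17 for MIXL1, -2.08 for LEAP2, -1.04 for both CSRP1 and TRIM50, -0.97 for both CLDN1 and MGC12916, -0.95 for C3orf33 and -0.94 for TADA1.

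In the 4 DMSO arrays of 6 h, a single array lay apart from the other 3 by Dixon's test for 42 of the 170 named genes, and chance marks about 1 in 20 groups. DMSO 6 h replicate 2 was that array for 36 of them, and over all named probe sets it lay apart at 11.4%. Among genes of metabolism and liver function its log2 level was 9.45 for ACAT2, 8.16 for ADH6, 9.86 for ELOVL2, 7.38 for FADS2, 10.12 for MSMO1, 7.96 for MTTP, 6.43 for TAT, 9.17 for C5, 9.40 for CP, 9.89 for FGB, 6.49 for KNG1, 11.01 for HLF, 7.59 for CHST9 and 9.03 for MPV17L. Among genes of replication and division it was 9.06 for CDC25B, 9.37 for CDC6, 9.20 for GINS1, 9.47 for GINS2, 8.24 for KIF15, 7.51 for MELK, 8.01 for SMC2 and 10.16 for UHRF1. Among signalling, adhesion and other genes it was 5.77 for CADM1, 6.76 for CSRP1, 7.90 for FSTL3, 8.21 for HMOX1, 9.07 for HSPG2, 8.41 for IRAK2, 9.75 for JAK1, 7.61 for JUNB, 5.08 for MNS1, 8.62 for PIM1, 8.48 for SDF2L1, 9.78 for SEC61B, 10.81 for SP5 and 8.52 for TIMP2. Replicate 1 lay apart at 11.97 for AFP, 9.15 for MIXL1, 3.56 for TMEM156 and 8.96 for TRIB1, replicate 3 at 3.36 for LAIR2, and replicate 4 at 5.91 for TRIM50.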

How the results depend on the processing

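The count of 1679 probe sets (897 higher, 782 lower) ran from 1054 to 2817 when single arrays were left out, with 541 to 1564 higher and 513 to 1253 lower; the lowest values came without BRD8518 6 h replicate 2 and the highest without DMSO 6 h replicate 2. It was 894 (498 and 396) in a fit of the 12 arrays alone, 2960 (1639 and 1321) with array weights and 937 (502 and 435) at an adjusted p under 0.01. Why these settings moved the count was not tested, apart from the stricter threshold, which lowers it by definition. Other settings gave 1391 (position letter as a fixed term) to 1858 (brighter probe sets only). The 1858 were 23.1% of the 8049 brighter probe sets tested, against 10.4% in the main fit. Leaving DMSO 6 h replicate 2 out of a fit of the 4 groups, chosen after seeing the data, gave 2293. Centring each array on its median moved the median difference to -0.038 and the higher share of calls from 53.4% to 44.9% (743 higher, 911 lower). Of 4061 values of named genes under alternatives, 3808 stayed on their side of the threshold, 243 lost the call and 10 gained it. The sign turned in 0 of those that passed the test in either fit. The 3808 include uncalled genes whose sign turned, such as APOB (-0.072 to 0.06). No paired analysis was possible because the labels give these groups no replicate numbers. With 2 arrays for BRD8518 at 6 h and a median SE of 0.17, small differences could go undetected.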

Other observations

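The 37519 probe sets without a gene symbol held 808 whose BRD8518 effect differed between the times (2.15%; limma, Benjamini-Hochberg adjusted over these probe sets), 468 higher and 340 lower, 304 of them by at least 2-fold. Without DMSO 6 h replicate 2 there were 1547 (4.12%). The median level of the 37519 was 4.51, against 5.93 for the named probe sets.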
